A study of Xenopus tropicalis with 18 samples.

Results

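The 320 regions described here are the counted regions at which a thyroid hormone receptor (TR) peak was present with T3 in all 3 genotypes studied, wild type, TRαKO and TRβKO. They were chosen by the peak lists: a region was taken when a peak overlapped it by at least 1 base in at least 2 of the 3 T3 libraries of each genotype. Of the 9867 regions in the authors' count table, 320 met this rule. The values of the 9 T3 libraries chose the regions, so levels with T3 are given below as a description. Where calls of the edgeR fit on these libraries are counted, they describe what the choice produced and support nothing. The 9 untreated libraries took no part in the choice, and comparisons among them are tested.

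Chromatin from the intestine of stage 54 tadpoles of the frog Xenopus tropicalis was precipitated with an antibody to TR and sequenced (ChIP-seq). There were 6 groups of 3 libraries: untreated wild type, wild type with T3, untreated TRαKO, TRαKO with T3, untreated TRβKO and TRβKO with T3. Treated tadpoles received 10 nM T3 for 18 h. The sample labels call the first knockout TRαKO and the series text TRαLKO. The series text speaks of 3 biological replicates from different tadpoles, and nothing says how many animals went into each library. The genotype labels and the tissue could not be checked against marker genes, because the files hold binding and not expression. The antibody is named only as a TR antibody, so signal in a knockout cannot be assigned to one receptor from the labels. Neither the alleles nor the background strain is described in the sources used here.

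Thyroid hormone acts through 2 nuclear receptors, TRα and TRβ, which bind DNA as heterodimers with retinoid X receptors and can stay on their response elements without hormone. Without T3 they recruit corepressors, and with T3 they exchange these for coactivators. In the tadpole intestine the hormone sets off metamorphosis, in which larval epithelial cells die and an adult epithelium forms from new stem cells.

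Library depth and fragment length differed between the groups. After the duplicate filter, untreated libraries held 12.4 to 17.1 M tags (M, 1e+06) in wild type, 7.49 to 9.28 M in TRαKO and 5.22 to 5.80 M in TRβKO. With T3 the ranges were 2.29 to 2.53, 6.03 to 8.02 and 2.76 to 3.28 M. The fragment length that MACS estimated was 255 to 283 bp in the 3 untreated wild-type libraries and 295 to 298 bp in all others. Signal is given as CPM, the reads counted in a region per M of these tags. A median region of the 320 held 10 to 21 reads in an untreated library and 38 to 50 reads in a T3 library. Fewer cells with bound receptor and less binding per cell cannot be told apart in these bulk samples.

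The regions lay mostly in or beside genes. A gene body overlapped 199 of the 320 (62.2%, against 53.8% of all counted regions on chromosomes), by the RefSeq gene table of UCB_Xtro_10.0. Another 69 had a gene within 10 kb, and 52 had none (16.2% against 29.0% of all regions). The median width was 539 bp against 453 bp over all regions. The files do not name their genome build, so positions are printed as the count table gives them. Chromosome 1 held 57 of the regions, chromosome 3 held 48 and chromosome 9 held 17.

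In all, 251 genes were assigned to the regions, and 11 of them had more than 1. All 3 counted regions of thrb, the gene of TRβ, were among the 320, as were 2 of the 4 of thra, the gene of TRα. The DNA repair genes spidr and babam2 had 4 of 5 and 4 of 8, and nfib, which encodes a nuclear factor I transcription factor, had 3 of 4. Both counted regions of ezh2, the histone H3K27 methyltransferase gene, and both of kdm7a, a histone demethylase gene, were included. Within 100 kb of a neighbour, 71 of the regions formed 29 clusters. One cluster of 4 spanned 94.5 kb on chromosome 10 and carried msl1, the REV-ERBα gene nr1d1 and thra.

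Signal with T3 was above the untreated level in every genotype, and the gap was smallest in TRαKO. The median of the 320 regions in a wild-type library was 1.17 to 1.23 CPM untreated and 16.1 to 16.6 with T3. In TRαKO it was 1.93 to 2.15 untreated and 6.21 to 6.47 with T3. In TRβKO it was 1.90 to 2.01 untreated and 14.6 to 14.9 with T3. Replicate medians were thus close to each other, and the TRαKO libraries with T3 lay far below those of the other genotypes. These TRαKO libraries were also the deepest T3 libraries. With every library thinned to the depth of the shallowest, the median log2 difference of TRαKO to wild type with T3 was -1.33, against -1.36 unthinned. Random thinning leaves the expected ratio at a region unchanged, and the regions were not chosen again, so this value is no check on depth. The part of depth in which regions passed the peak rule was not tested. Over all 320 regions together, T3 libraries held 0.590 to 0.614 reads per 100 tags in wild type, 0.233 to 0.244 in TRαKO and 0.528 to 0.544 in TRβKO. Untreated libraries held 0.0538 to 0.0568, 0.0861 to 0.0914 and 0.0918 to 0.0974.

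**Figure D1:**
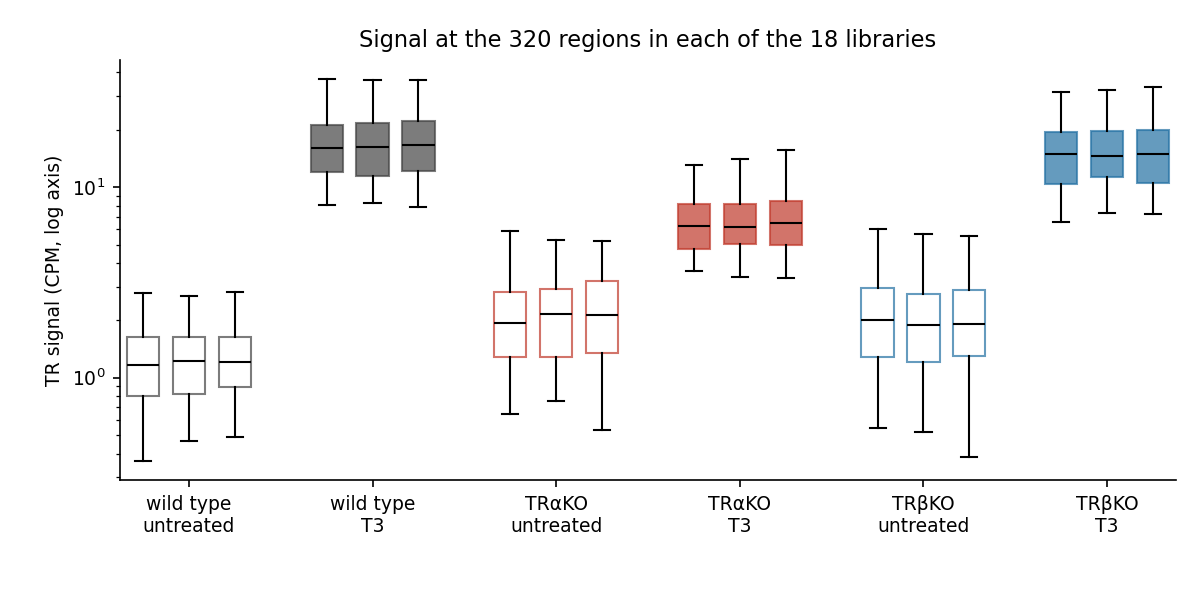
TR signal at the 320 regions in each library, in CPM on a log axis; boxes span the quartiles with the median as a line, whiskers the 5th to 95th percentile, open boxes are untreated and filled boxes T3 libraries. The 3 TRαKO libraries with T3 have medians of 6.21 to 6.47 CPM, and the wild-type and TRβKO libraries with T3 have medians of 14.6 to 16.6 CPM.

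As the choice of regions implies, nearly all were called higher with T3. In the edgeR fit over 9342 regions, 314 of the 320 were called in wild type (10.2% of all tested regions), 294 in TRαKO (8.60%) and 311 in TRβKO (9.49%). Called lower with T3 were 0 in wild type (1.08% of all tested regions), 1 in TRαKO (0.0749%) and 1 in TRβKO (2.27%). Wild type had a median log2 difference with T3 of 3.80, TRαKO of 1.66 and TRβKO of 2.94. Peaks in all 3 T3 libraries of every genotype were present at 169 regions, and 11 had exactly 2 of 3 in each genotype.

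Regions on both sides of the rule's limit had values near each other in wild type and TRαKO. Another 104 regions missed the rule only because 1 genotype had a peak in 1 T3 library rather than 2. Where TRαKO was that genotype, the 37 regions outside had a median TRαKO level with T3 of 3.92 CPM, and the 86 regions inside with 2 of 3 TRαKO libraries had 4.70. For wild type the medians outside and inside were 9.57 (32 regions) and 10.7 CPM (66 regions). For TRβKO they were 6.50 (35 regions) and 9.95 CPM (69 regions). The 169 regions with every peak had a T3 median of 20.4 CPM for wild type, 7.74 for TRαKO and 18.8 for TRβKO.

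Among regions with a gene name, the highest signal with T3 outside a transfer RNA gene was beside MGC86483 (chr5:5402339-5403067). Its T3 libraries read 82.3, 81.0 and 89.2 CPM in wild type, 29.8, 29.2 and 31.7 in TRαKO, and 73.4, 82.0 and 71.8 in TRβKO. The region in thibz, a T3-induced leucine zipper transcription factor gene of Xenopus (chr3:140193300-140193863), read 53.0, 58.9 and 59.9 in wild type with T3. It read 20.3, 19.9 and 22.6 in TRαKO and 46.4, 44.2 and 35.2 in TRβKO. At both, the TRαKO libraries were the lowest of the T3 libraries and stood apart from the rest.

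The receptor genes themselves carried strong signal. The stronger thra region (chr10:9096138-9097271) read 46.6, 49.0 and 49.0 CPM in the T3 libraries of wild type, 18.1, 19.9 and 21.1 in those of TRαKO, and 36.7, 53.1 and 35.2 in those of TRβKO. At this region TRβKO libraries lay on both sides of the wild-type libraries, and TRαKO libraries lay below both. The strongest thrb region (chr6:46932899-46933467) read 41.0, 39.9 and 39.8 in wild type, 12.3, 11.7 and 14.3 in TRαKO, and 32.6, 31.4 and 33.7 in TRβKO. Here the 3 genotypes did not overlap. Reads from a knockout animal at its own receptor gene can still be counted, since the regions lie anywhere in the gene and the altered bases are not known here.

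The other thrb regions had different patterns. At chr6:46899379-46899872 TRβKO libraries with T3 (18.0, 21.7 and 18.9 CPM) lay above wild type (14.5, 13.4 and 13.1). At chr6:46698245-46698759 TRαKO read 4.74, 3.81 and 4.81 with T3 and 4.12, 5.49 and 4.94 without, so these libraries overlapped, while wild type read 13.7, 19.0 and 14.0 with T3 and 1.90, 1.64 and 2.75 without. TRβKO with T3 read 10.4, 12.5 and 15.2 there and overlapped with wild type.

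**Figure D2:**
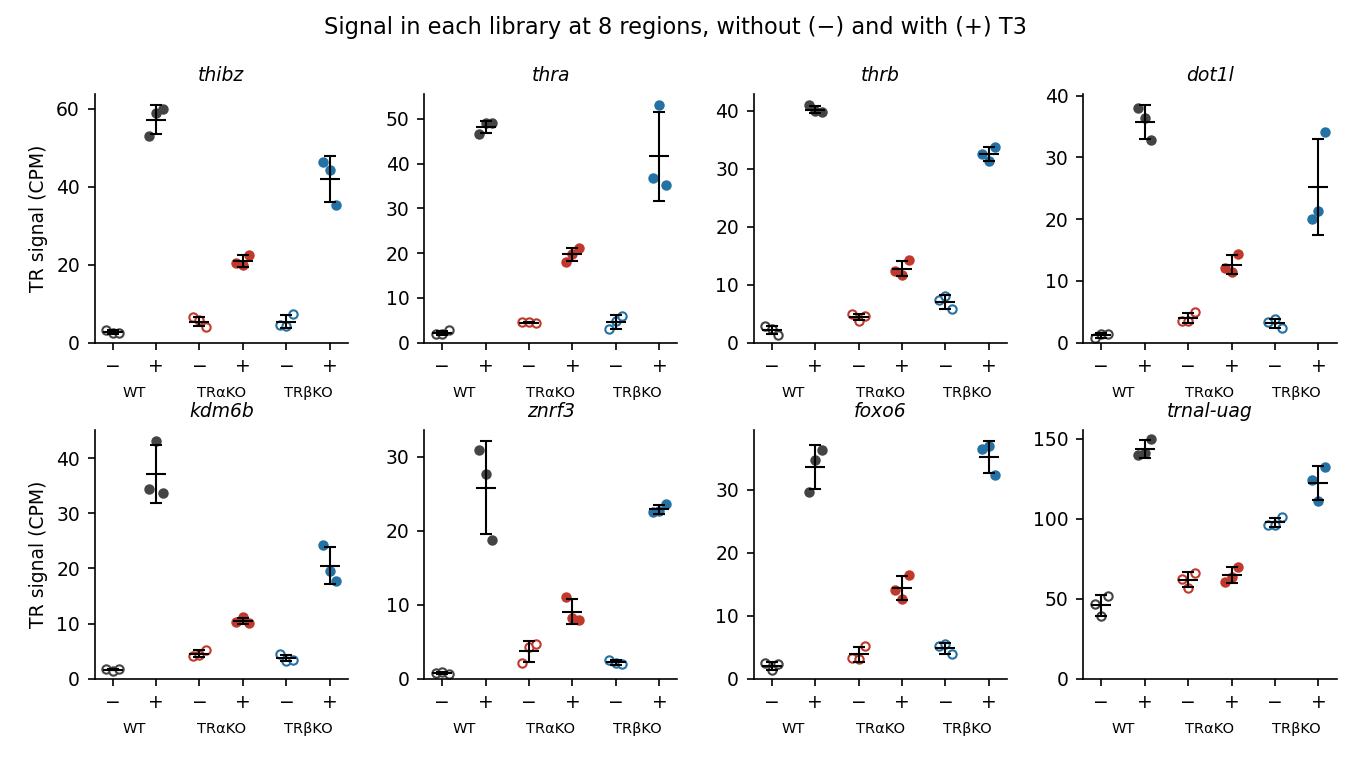
TR signal in CPM at 8 of the regions, named by gene, in each library of wild type (grey), TRαKO (red) and TRβKO (blue) without (−, open) and with (+, filled) T3; bars are the mean and SD of 3 libraries. At thibz the wild-type libraries with T3 read 53.0 to 59.9 CPM and the TRαKO libraries 19.9 to 22.6; the trnal-uag panel shows a region with a peak in all 18 libraries.

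Lower signal in TRαKO with T3 ran through almost the whole set. The ratio of the TRαKO mean to the wild-type mean with T3 had a median of 0.390, a range from 0.207 to 1.30, and lay below 1 at 316 regions. At 279 regions TRαKO was called lower than wild type with T3 (7.30% of all tested regions were), and the median log2 difference was -1.36. The ratio of TRβKO to wild type had a median of 0.916 and ran from 0.288 to 1.86, with 192 regions below 1 and 128 above, a split that turned with TMM or DESeq2 scaling (positive differences at 205 and 215). TRβKO was called lower at 25 regions (3.65% of all tested) and higher at 1 (0.578%), with a median log2 difference of -0.13, which turned to 0.16 with TMM scaling and to 0.18 with DESeq2. The balance of calls turned as well, to 8 lower and 7 higher with TMM and 13 lower and 22 higher with DESeq2. Over all tested regions 1.46% were lower and 0.814% higher with TMM, and 1.41% and 1.18% with DESeq2. TRβKO was called above TRαKO at 265 regions (6.25% of all tested), with a median of 1.21. The T3 difference was called smaller in TRαKO than in wild type at 249 regions (5.18% of all tested), smaller in TRβKO than in wild type at 66 (1.52%), and larger in TRβKO than in TRαKO at 114 (2.04%). The 66 became 34 by total tags (0.614% of all tested) and 26 after thinning each library to the depth of the shallowest (2.48%). The 114 became 222 with DESeq2 (5.15%) and 52 after thinning (4.28%). These differences are descriptions, since the rule asked for a peak in each T3 group.

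**Figure D3:**
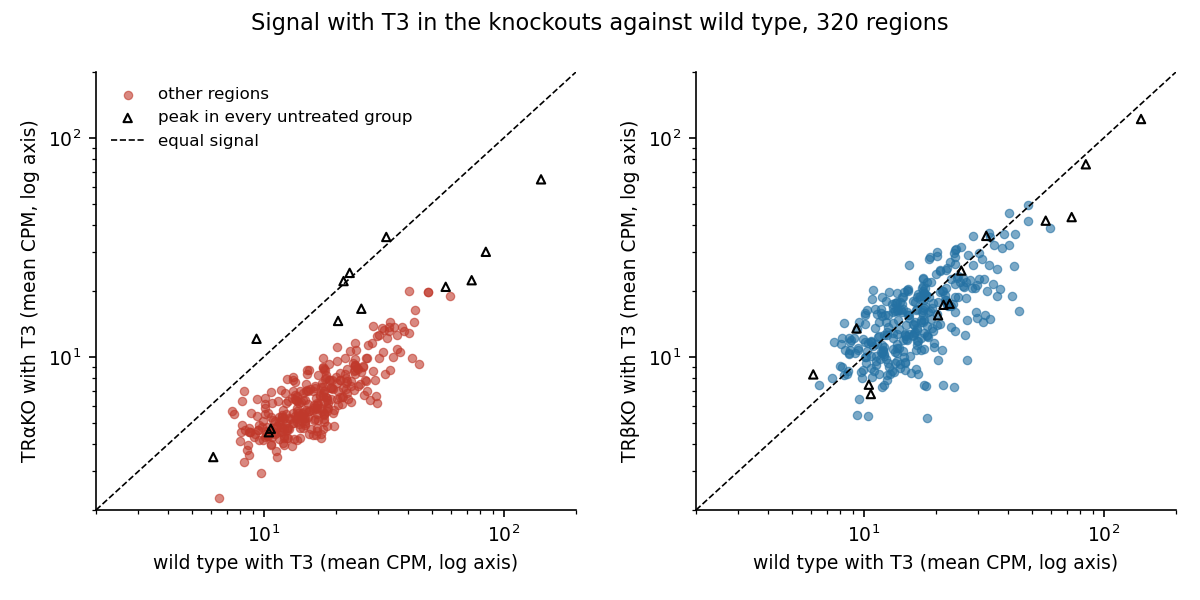
Mean TR signal with T3 (3 libraries per group, CPM, log axes) at the 320 regions in TRαKO (left) and TRβKO (right) against wild type; the dashed line marks equal signal and triangles mark the 13 regions that also had a peak in every untreated group. In TRαKO 316 of 320 points lie below the line, and in TRβKO 192 do, a split that turns with TMM or DESeq2 scaling.

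The order of the regions by strength was broadly kept between genotypes. Across the 320 regions the rank correlation of mean signal with T3 was 0.79 between wild type and TRαKO, 0.76 between TRαKO and TRβKO, and 0.68 between wild type and TRβKO. These describe regions of unequal width that share libraries within each genotype.

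Among the stronger regions, the TRαKO share of the wild-type signal with T3 varied. The region beside ciart, a gene of a circadian repressor (chr8:133344222-133344926), read 27.7, 30.8 and 30.6 CPM in wild type with T3 and 6.23, 5.22 and 6.97 in TRαKO, a ratio of 0.207. TRβKO lay between them with 16.3, 14.3 and 14.5. In card19 (chr4:151033176-151033724) wild type read 42.6, 45.5 and 45.5, TRαKO 8.10, 10.6 and 9.13, and TRβKO 14.9, 17.1 and 16.7. Both knockouts were well under wild type at these regions and their libraries did not overlap with it.

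The regions at ccnf, the cyclin F gene, ipmk, an inositol phosphate kinase gene, and cables2 followed with TRαKO ratios of 0.226, 0.229 and 0.239. Their TRβKO ratios were 0.549, 0.807 and 0.458. At ipmk the TRβKO libraries (27.0, 18.9 and 21.4 CPM) stood near wild type (27.3, 27.3 and 28.9), with TRαKO at 7.11, 6.35 and 5.64. The highest TRαKO ratios among the stronger regions were at LOC116408296, LOC101733468, LOC101731736, qtrt1 and LOC105948261. All of these also had a peak in every untreated group and are described below. Among the 307 regions without such peaks, the TRαKO difference to wild type with T3 was positive at 0.

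The lowest TRβKO ratios among the stronger regions fell at pnpla3, a lipase family gene, c2cd5, card19, kdm7a and cables2. At pnpla3 (chr3:4404950-4405478) TRβKO read 5.89, 7.62 and 8.35 CPM with T3, next to 8.35, 6.77 and 5.97 in TRαKO and 22.1, 22.5 and 26.7 in wild type. The knockouts overlapped there, and both were far below wild type. At c2cd5 the values were 10.0, 9.45 and 9.43 in TRβKO, 6.11, 6.21 and 8.63 in TRαKO and 31.7, 22.1 and 26.7 in wild type.

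At the other end, TRβKO exceeded wild type at cd36l, a CD36-like gene, ulk1, an autophagy kinase gene, jakmip3, ppm1b, a protein phosphatase gene, and the thrb region at 46899379. In ulk1 (chr1:156665778-156666363) TRβKO read 27.7, 28.1 and 29.8 CPM with T3, wild type 16.9, 19.0 and 20.6, and TRαKO 6.11, 8.33 and 7.30. At cd36l (chr3:79061272-79061813) the TRβKO libraries read 22.9, 30.2 and 25.8 against 13.2, 17.0 and 16.2 in wild type. Neither set of libraries overlapped, and the ratios were 1.52 and 1.70.

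Without T3, most regions had no peak. At 217 of the 320 none of the 9 untreated libraries had one. Untreated wild type had a peak in at least 2 of 3 libraries at 17 regions, TRαKO at 51 and TRβKO at 22. Over all counted regions these shares were 49.8%, 2.94% and 3.35%, and among the 320 they were 5.31%, 15.9% and 6.88%. Untreated wild-type libraries thus had peaks at far more of the counted regions in general, and at fewer of these 320 than TRαKO did. At 29 regions untreated TRαKO was the only untreated group with peaks in 2 or more libraries. The untreated TRαKO libraries were shallower than the untreated wild-type ones, and the part of depth in these peak counts was not tested.

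A peak in every untreated group as well was found at 13 of the 320 regions, against 70 of all counted regions. They fell into 2 kinds by their values. At 3 of them signal with T3 was much higher than without in every genotype: MGC86483, thibz and a region with no gene within 10 kb (chr2:4073551-4074707). The last had means of 2.56 ± 0.183 CPM untreated and 73.5 ± 1.47 with T3 in wild type, 7.31 ± 1.70 and 22.4 ± 0.955 in TRαKO, and 10.4 ± 1.73 and 43.5 ± 2.14 in TRβKO (SD, n = 3).

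At the other 10, mean signal with T3 stayed near or below the untreated mean in some or all genotypes. The strongest of these regions was in trnal-uag, a leucine transfer RNA gene (chr6:130885753-130886697). Untreated libraries there read 46.6, 38.9 and 51.6 CPM in wild type, 62.4, 56.8 and 66.2 in TRαKO, and 96.1, 95.9 and 101 in TRβKO. With T3 they read 140, 141 and 150 in wild type, 60.2, 63.8 and 70.0 in TRαKO, and 124, 111 and 132 in TRβKO. TRαKO libraries with and without T3 overlapped, and wild-type ones were far apart. TRβKO libraries with T3 lay above the untreated ones.

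At LOC101731736 (chr10:12303-13040) wild type averaged 23.6 ± 1.75 CPM untreated and 32.4 ± 5.35 with T3, and TRβKO 50.1 ± 2.24 untreated and 35.7 ± 4.81 with T3 (SD, n = 3). The direction with T3 was opposite in these 2 genotypes. In qtrt1, the gene of a tRNA-modifying enzyme (chr3:138668547-138669470), TRβKO averaged 29.1 ± 0.386 untreated and 24.8 ± 2.39 with T3. The remaining regions of this kind lay at LOC105948261, LOC101733468, LOC116408296, LOC116411696 and LOC105948228 and at 2 places with no gene within 10 kb. At LOC105948228 wild type averaged 2.34 ± 0.457 CPM untreated and 6.16 ± 0.154 with T3, and TRαKO 7.51 ± 0.399 and 3.49 ± 0.763. Transfer RNA genes and unnamed loci can have near-identical copies, and how the authors' alignment placed such reads is not given in the sources used here. These values are therefore uncertain.

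The tested comparisons asked whether the genotypes already differed at the 320 regions before T3. Both untreated knockout groups carried more TR signal than the untreated wild-type group at many of the regions. Untreated TRαKO was higher than untreated wild type at 89 regions (1.65% of all tested regions were) and lower at 0 (1.10%), by edgeR's quasi-likelihood test with an adjusted p under 0.05. At an unadjusted p under 0.05 the counts were 176 and 3 (475 and 1052 over all 9342 tested regions), and DESeq2 gave 170 and 0. Untreated TRβKO was higher than wild type at 81 regions (2.07% of all tested) and lower at 2 (1.88%). The knockouts differed from each other at few regions, with TRβKO above TRαKO at 3 (0.407%) and below at 2 (0.214%). Without the 13 regions that had peaks in every untreated group, TRαKO was higher than wild type at 83 and TRβKO at 74. Both comparisons rest on the same 3 untreated wild-type libraries, which also stood apart in depth, peak number (8466 to 17717 against 813 to 2255 in the untreated knockouts) and fragment length. The part of fragment length in these differences was not tested. Genotype set apart the same 3 libraries as these traits did, so their parts cannot be told apart in this design.

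The shift covered more of the set than the called regions. The median log2 difference over the 320 was 0.76 for TRαKO and 0.75 for TRβKO, against -0.28 and -0.18 over all tested regions. It was positive at 281 and 277 of the 320. All 3 TRαKO libraries lay above all 3 wild-type libraries at 146 regions (6.75% of all tested), and all 3 TRβKO libraries did so at 129 (11.7%). The median standard error of a region's log2 difference was 0.36 and 0.39, to be set against the median differences. Between the knockouts the median was -0.01, against 0.12 over all regions. All regions are not a neutral comparison set. Of all counted regions 49.8% had a peak in at least 2 untreated wild-type libraries, against 5.31% of the 320. For untreated TRαKO and TRβKO the shares over all counted regions were 2.94% and 3.35%. The part of this in the gap between the 320 and all regions was not tested.

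The size of the shift depended on how libraries were scaled. Over the other counted regions the untreated wild-type libraries had the higher signal, with a median of 1.77 CPM against 1.40 in TRαKO and 1.54 in TRβKO. TMM scaling moved the median of all tested regions from -0.28 to 0.07 for TRαKO and from -0.18 to 0.04 for TRβKO. It gave 163 higher regions of the 320 in TRαKO and 124 in TRβKO, and over all regions 3.96% higher and 0.460% lower, and 4.34% and 1.15%. DESeq2 gave 4.12% and 0.578% over all regions for TRαKO and 4.06% and 1.95% for TRβKO. Relative to all regions, the 320 stood 1.04 (log2) higher in TRαKO and 0.93 in TRβKO with both the tag-based and the TMM scaling. Scaling moves all regions of a library nearly alike, so this gap could hardly change and is no check on the scaling. With every library thinned to the depth of the shallowest, only 1938 regions passed the count filter, all 320 among them, so the comparison set changed. The medians of the 320 were then 0.70 and 0.80 against 0.04 and 0.12 over these 1938, a gap of 0.66 and 0.68. Random thinning leaves expected ratios unchanged, so the medians of the 320 could hardly move. The regions called higher then numbered 17 in TRαKO (1.65% of all tested after thinning) and 21 in TRβKO (2.43%). Of the 81 untreated calls at the named regions, 54 were lost after thinning, 39 without some single library, and 21 held in every alternative run.

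**Figure D4:**
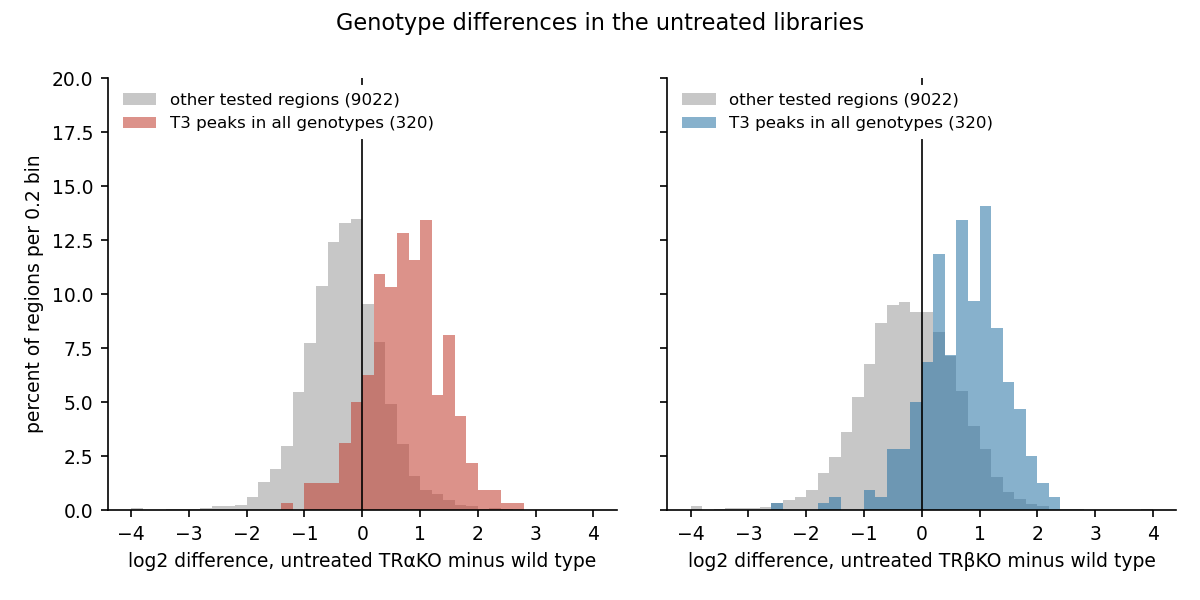
Distribution of the log2 difference in TR signal between untreated TRαKO (left) or TRβKO (right) and untreated wild type, as percent of regions per bin of the log2 difference, for the 320 regions (colour) and the other 9022 tested regions (grey); values past ±4 are placed in the end bins. The 320 regions centre at 0.76 and 0.75, and all tested regions at -0.28 and -0.18.

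Genes of the direct T3 response list made up the largest group among the 320. Over all 320, 27.8% were higher in untreated TRαKO and 25.3% in untreated TRβKO, and the counts of each list stand beside these shares without a test. The list held 17 genes with a counted region, and 14 of them had 1 or more of the 320 regions, 19 in all. Of these 19, 10 were higher in untreated TRαKO than in wild type and 11 in untreated TRβKO, none was lower in either, and the median log2 differences were 1.01 and 1.09. Over all 15 lists, 44 of the 153 genes with a counted region had one of the 320 regions. No region of the 320 was at a gene of the lists for hormone transport and metabolism, stem cells, or mesenchyme and other cell types, of which 1, 3 and 5 genes had a counted region.

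Of the nuclear receptor genes, thra, thrb, nr3c2, rara, rxrb and nr1d1 held 9 of the regions. Of the 9, 6 were higher in untreated TRαKO and 4 in untreated TRβKO. The stronger thra region read 1.83, 1.81 and 2.75 CPM in untreated wild type, 4.50, 4.52 and 4.41 in TRαKO and 2.92, 4.83 and 5.94 in TRβKO. Both knockouts' libraries lay above wild type, by 1.08 ± 0.23 in TRαKO (log2, SE, edgeR adjusted p = 8.20e-04, lost after thinning) and 1.11 ± 0.24 in TRβKO (adjusted p = 0.00189, lost without TRβKO replicate 3). The thrb region at 46932899 read 2.78, 2.28 and 1.38 in wild type, 4.89, 3.77 and 4.54 in TRαKO and 7.31, 8.11 and 5.75 in TRβKO. It was higher by 1.01 ± 0.23 (edgeR adjusted p = 0.00294) and 1.70 ± 0.23 (adjusted p = 4.19e-08), and the TRαKO call was lost without wild-type replicate 3 and after thinning.

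The thrb region at 46698245 read 1.90, 1.64 and 2.75 CPM in untreated wild type, 4.12, 5.49 and 4.94 in TRαKO, and 5.85, 6.04 and 6.32 in TRβKO. It was higher in TRβKO by 1.54 ± 0.28 (edgeR adjusted p = 1.10e-04) and in TRαKO by 1.23 ± 0.28 (adjusted p = 0.00257, lost without wild-type replicate 2). The thrb region at 46899379 was called higher in untreated TRαKO only, by 1.16 ± 0.34 (edgeR adjusted p = 0.0444). That call was lost in 8 of 12 alternative runs. At nr3c2, the mineralocorticoid receptor gene, untreated libraries of the genotypes overlapped (3.36, 2.28 and 3.24 in wild type, 2.31, 3.98 and 2.94 in TRαKO, 2.19, 4.66 and 2.49 in TRβKO).

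Transcription factor genes that answer directly to T3 in Xenopus included thibz and klf9. At thibz untreated wild type read 3.22, 2.57 and 2.35 CPM, TRαKO 6.43, 5.71 and 4.01, and TRβKO 4.57, 4.14 and 7.28. The knockouts were higher by 0.99 ± 0.20 (edgeR adjusted p = 8.11e-04) and 0.96 ± 0.22 (adjusted p = 0.00366, lost without TRβKO replicate 3), and both calls were lost after thinning. At klf9, a Krüppel-like factor gene (chr1:129859818-129860416), the differences were 1.17 ± 0.31 (edgeR adjusted p = 0.0164) and 1.09 ± 0.33 (adjusted p = 0.0434). The TRαKO call at klf9 was lost without wild-type replicate 2 or 3 or TRαKO replicate 1 or 3, and the TRβKO call without any 1 wild-type library, without TRβKO replicate 1 or 2, by total tags and with a replicate block. Thinning ended both.

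The transcription factor list held 14 of the regions at 11 genes, of which 3 were higher in untreated TRαKO and 6 in untreated TRβKO. In nfib (chr1:124400064-124400657) wild type read 0.585, 1.17 and 0.647 CPM, TRαKO 2.06, 3.12 and 3.34, and TRβKO 1.28, 3.45 and 2.68. TRαKO and TRβKO stood above all wild-type libraries, by 1.76 ± 0.33 (edgeR adjusted p = 1.85e-04) and 1.57 ± 0.37 (adjusted p = 0.00542, lost without TRβKO replicate 2), and both calls were lost after thinning. At the nfib region at 124449059 TRβKO was called higher (1.59 ± 0.33, edgeR adjusted p = 0.00119, lost after thinning) and TRαKO was not. The nfib region at 124375125 was called in neither knockout (0.06 ± 0.40 in TRαKO and 0.24 ± 0.43 in TRβKO). At zbtb34, a zinc finger gene (chr8:4597656-4598181), TRαKO read 2.70, 4.31 and 4.01 against 1.32, 0.760 and 0.971 in wild type, higher by 1.86 ± 0.29 (edgeR adjusted p = 5.96e-06). TRβKO there read 1.28, 0.863 and 2.87, which overlapped with wild type.

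Chromatin enzyme genes formed another group. The coregulator and histone enzyme list had 9 genes with 11 of the regions, 5 of them higher in untreated TRαKO and 4 in untreated TRβKO. In dot1l, the histone H3K79 methyltransferase gene (chr1:102709807-102710470), untreated wild type read 0.731, 1.34 and 1.38 CPM, TRαKO 3.47, 3.45 and 4.94, and TRβKO 3.29, 3.80 and 2.30. The differences were 1.75 ± 0.28 (edgeR adjusted p = 6.84e-06) and 1.43 ± 0.31 (adjusted p = 0.00170), with no overlap between either knockout and wild type, and both calls were lost after thinning. With T3 the same region read 38.1, 36.4 and 32.8 in wild type, 12.1, 11.4 and 14.3 in TRαKO and 20.1, 21.3 and 34.1 in TRβKO.

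In kdm6b, an H3K27 demethylase gene (chr3:147034252-147034793), the untreated libraries read 1.68, 1.46 and 1.78 CPM in wild type, 4.12, 4.20 and 5.21 in TRαKO, and 4.39, 3.28 and 3.45 in TRβKO. Both knockouts were higher, by 1.45 ± 0.25 (edgeR adjusted p = 2.56e-05) and 1.17 ± 0.27 (adjusted p = 0.00446, lost without TRβKO replicate 1), and both calls were lost after thinning. The ezh2 region at 55124943 was higher in TRβKO by 1.61 ± 0.32 (edgeR adjusted p = 4.03e-04), with 2.56, 5.69 and 3.26 CPM against 1.02, 1.23 and 1.54, a call lost without TRβKO replicate 2. It was also called higher in TRαKO, by 1.06 ± 0.32 (edgeR adjusted p = 0.0473), a call lost in 8 of 12 alternative runs. The other ezh2 region, at 55124177, was called in neither untreated knockout. In mphosph8, whose product binds methylated H3K9 (chr2:158638194-158638697), the untreated wild-type libraries were near 0 (0.293, 0.351 and 0.324). TRαKO read 2.96, 1.18 and 2.27 there, the largest TRαKO difference among the called regions at 2.63 ± 0.46 (edgeR adjusted p = 3.73e-05, lost after thinning). TRβKO was called higher at mphosph8 too, by 2.16 ± 0.52 (edgeR adjusted p = 0.00653, lost without TRβKO replicate 1).

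Genes for DNA methylation and chromatin remodelling held 4 regions, at tet3, gatad2a, dnmt3a and chd7. Of the 4, 1 was higher in untreated TRαKO and 2 in untreated TRβKO. The gatad2a region was higher in both, by 1.56 ± 0.40 (edgeR adjusted p = 0.0136) and 1.42 ± 0.45 (adjusted p = 0.0498). Its TRαKO call was lost in 3 of 12 alternative runs and its TRβKO call in 8. In chd7, a chromatin remodeller gene (chr6:117154658-117155060), TRβKO read 2.19, 2.07 and 2.30 CPM untreated against 0.439, 0.584 and 0.809 in wild type, higher by 1.82 ± 0.44 (edgeR adjusted p = 0.00653, lost after thinning). TRαKO read 1.54, 0.862 and 0.668 and was not called.

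Of 8 WNT genes with a counted region 1 had one of the 320, and of 8 hedgehog, BMP and activin genes 2 did. The WNT region was in znrf3, a gene of a ubiquitin ligase that turns over WNT receptors (chr1:166191911-166192396). Untreated wild type read 0.731, 0.876 and 0.567 CPM, TRαKO 2.06, 4.31 and 4.67, and TRβKO 2.56, 2.07 and 1.92. The differences were 2.30 ± 0.32 (edgeR adjusted p = 1.49e-07) and 1.54 ± 0.37 (adjusted p = 0.00678, lost without TRβKO replicate 1 and after thinning). Beside acvr1b, an activin receptor gene (chr2:135122059-135122585), wild type read 0.293, 0.584 and 0.324, TRαKO 2.96, 1.94 and 1.74, and TRβKO 2.38, 2.59 and 1.72. Both knockouts stood well above wild type, by 2.36 ± 0.41 (edgeR adjusted p = 3.51e-05) and 2.38 ± 0.44 (adjusted p = 1.19e-04, lost after thinning). The cdon region, at a hedgehog co-receptor gene, was called in neither (1.93, 1.94 and 2.27 in TRαKO, 2.27, 1.58 and 1.05 in wild type).

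The insulin, PI3-kinase and autophagy list, with 15 genes that had a counted region, held regions at ulk1, ulk2, pik3r1 and insr, the insulin receptor gene. Of these, the insr region (chr1:111790117-111790585) was higher in untreated TRαKO, which read 2.31, 2.48 and 1.60 CPM against 0.658, 0.760 and 0.0809 in wild type (1.99 ± 0.41, edgeR adjusted p = 8.08e-04, lost after thinning). Beside smpd1, the acid sphingomyelinase gene, no untreated difference was called, and with T3 the TRβKO libraries (8.66, 5.79 and 7.98) lay below wild type (16.5, 14.6 and 22.7). In sgms1, a sphingomyelin synthase gene (chr7:13203605-13204330), untreated TRαKO read 3.86, 4.52 and 4.67 against 1.32, 0.935 and 1.62 in wild type, higher by 1.77 ± 0.25 (edgeR adjusted p = 1.93e-07). TRβKO read 3.11, 3.28 and 3.26 there and was higher by 1.33 ± 0.28 (edgeR adjusted p = 0.00115), and both calls were lost after thinning.

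The genes of the epithelium list with one of the regions were dpp4, a brush border peptidase, amn, part of the vitamin B12 receptor, and cdx1, an intestinal homeobox factor. At dpp4 untreated TRαKO was higher by 1.40 ± 0.32 (edgeR adjusted p = 0.00403), with 2.06, 3.12 and 2.27 CPM against 0.804, 1.23 and 0.728, a call lost without TRαKO replicate 2 and after thinning. The TRβKO call at dpp4 (1.16 ± 0.36, edgeR adjusted p = 0.0497) was lost by total tags, after thinning, without wild-type replicate 1 or 3 and without any 1 TRβKO library. Untreated signal at amn and cdx1 was called in neither knockout. In gsdme, a gene of a pore-forming cell death protein (chr6:40970422-40971028), wild type read 1.24, 0.935 and 0.728, TRαKO 3.34, 3.88 and 3.20 and TRβKO 3.47, 5.18 and 2.87. Both knockouts were above wild type, by 1.82 ± 0.30 (edgeR adjusted p = 1.64e-05) and 1.97 ± 0.32 (adjusted p = 8.14e-06), and both calls were lost after thinning. The cell cycle inhibitor gene cdkn1a was higher in TRαKO by 1.20 ± 0.32 (edgeR adjusted p = 0.0179), a call lost without wild-type replicate 1 or 3 or TRαKO replicate 3 and after thinning.

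The 2 regions lower in untreated TRβKO than in wild type were at fcho2, a gene of endocytosis, and LOC116410243. At fcho2 (chr1:183016151-183016647) TRβKO read 0.183, 0.345 and 0.192 CPM against 0.951, 1.93 and 1.29 in wild type, a difference of -2.46 ± 0.63 (edgeR adjusted p = 0.0119) that was lost without wild-type replicate 2 or TRβKO replicate 1 or 3. At LOC116410243 (chr4:11843043-11843708) TRβKO read 2.38, 1.38 and 1.92 against 6.58, 6.54 and 5.91, a difference of -1.74 ± 0.35 (edgeR adjusted p = 5.46e-04).

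Between the untreated knockouts, trnal-uag, qtrt1 and spag7 were higher in TRβKO. The qtrt1 region read 29.1, 29.5 and 28.7 CPM in TRβKO and 15.8, 12.8 and 12.3 in TRαKO, a difference of 1.09 ± 0.16 (edgeR adjusted p = 2.13e-06). The trnal-uag region differed by 0.66 ± 0.10 (edgeR adjusted p = 2.36e-06). Both are among the 13 regions with peaks in every untreated group, and without these 13 only spag7 was left as higher. The regions lower in TRβKO than in TRαKO were at tmcc1 and pnpla3, with edgeR adjusted p of 0.0467 and 0.0445. The tmcc1, pnpla3 and spag7 calls were all lost after thinning, those of tmcc1 and pnpla3 also with a replicate block, and that of spag7 with TMM scaling. The tmcc1 call was also lost without any 1 library of these groups, and the pnpla3 call without TRαKO replicate 1 or 3 or TRβKO replicate 2 or 3. The spag7 call was lost without TRαKO replicate 1 or 2 or TRβKO replicate 1 or 3.

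The peak summits of the genotypes fell close together, which is a description, since the rule asked for peaks of every genotype at the same region. The median distance between the wild-type and TRαKO summits with T3 was 16 bp, that between wild type and TRβKO 19 bp, and that between the knockouts 18 bp. At 84.7%, 83.1% and 80.9% of the regions the summits were within 50 bp. The span of the summits over replicate libraries of a group had medians of 33 to 41 bp. This span is the largest distance between single libraries, and the genotype distances are between group medians, so these measures are unlike. The largest separations were at LOC105945878 (667 bp), nr3c2 (536 bp) and nrarp (452 bp), all within wide regions. At nr3c2 the wild-type and TRβKO summits lay at 57297942 and 57297898 and the TRαKO summit at 57298434 on chromosome 1.

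**Figure D5:**
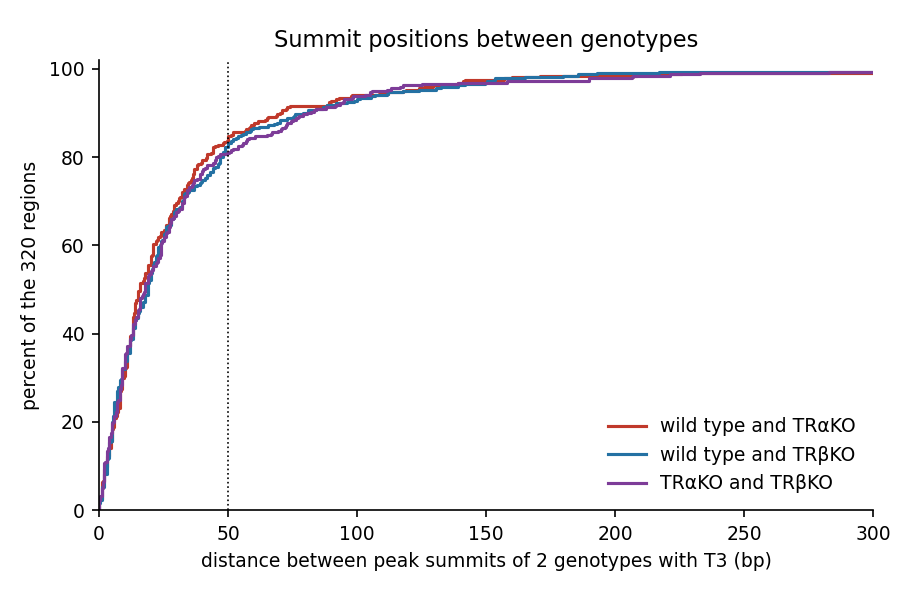
Cumulative percent of the 320 regions by the distance in bp between the T3 peak summits of 2 genotypes, each summit being the median over the libraries with a peak; the dotted line marks 50 bp. The 3 curves nearly coincide, with 80.9% to 84.7% of regions within 50 bp.

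Further sets of regions with other peak patterns were set beside the 320. In the first, 66 regions had T3 peaks in at least 2 libraries each of wild type and TRβKO but in fewer than 2 of TRαKO. Their untreated median log2 differences were 0.69 for TRαKO and 0.67 for TRβKO. Of the 66, 9 and 6 were called higher (13.6% and 9.09%, against 1.65% and 2.07% of all tested regions). The 104 near misses of the rule had 0.56 and 0.51, with 15 and 11 called higher (14.4% and 10.6%). Of these near misses 37 had a peak in 1 TRαKO library and are also among the 66. In the second, 1465 regions had T3 peaks called in TRαKO alone, 1445 of which were tested. The TRαKO libraries with T3 were the deepest T3 libraries and had 3039 to 6565 peaks, against 666 to 959 in the others. Median signal with T3 at the 1465 was 2.69 CPM in TRαKO, 1.82 in wild type and 1.65 in TRβKO. The part of depth in this set was not tested. The untreated median log2 difference of these regions was -0.06 for TRαKO and 0.33 for TRβKO. Of the 1445, 10 and 17 were called higher (0.692% and 1.18%), below the shares of all tested regions. The differences between these sets were not tested.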

How the data were processed

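TR ChIP-seq was analysed in 18 libraries, with groups taken from their labels. Per the submitters' processing notes the tools were Bowtie2 2.3.4.1, MACS2 2.1.1.20160309 and DiffBind, while the file headers name MACS 2.2.7.1 with a q-value limit of 0.05 and 1 tag kept per position. Peaks were called per library without a control library, per the file headers. Raw read counts per region make up the deposited count table, and the authors did not normalize them. The deposited peak lists give the pileup signal at the summit, −log10 p-values and q-values, and fold enrichment, a ratio to local background, per the file headers.

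Counts were fitted with edgeR 4.0.16 in R 4.3.3 (robust quasi-likelihood, 6 group means, all 18 libraries, tags after the duplicate filter as library size, filterByExpr). All 320 regions passed the filter, with 9342 of 9867 tested. Tests were two-sided with p-values adjusted by Benjamini-Hochberg across the 9342 regions, and the fit was tested on simulated data. P-values measure the spread between these libraries. Alternatives were TMM, total tags, DESeq2 1.42.0, no filter, a replicate block, each library left out and, chosen after seeing the data, thinning and leaving out regions with peaks in every untreated group. Tables and figures were made in Python 3.11.15 with pandas 2.3.3 and matplotlib 3.10.9.

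Regions were assigned to the gene body they overlap, otherwise to the closest gene up to 10 kb away. The regions and the 15 gene lists were chosen with earlier results of these data known. Regions were named for level (the 15 highest), for 13 chosen genes, for untreated calls (up to 6 per direction), for T3 ratio (5 highest and lowest among the regions at or above the median level), for lists (up to 4 each), and for untreated level or peaks. Regions in the cluster, summit and several-region sentences were named by those counts.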

Additional observations from a re-analysis of the deposited data

Results flagged for a closer look

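The effect of T3 differed between genotypes at many of the 320 regions by the interaction term of the edgeR fit. The T3 libraries chose the regions, so these counts are descriptions. The T3 difference was smaller in TRαKO than in wild type at 249 regions (5.18% of all tested regions were), smaller in TRβKO than in wild type at 66 (1.52%), and larger in TRβKO than in TRαKO at 114 (2.04%). The untreated levels enter each of these differences.

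Among the named regions, the T3 effects of TRαKO and wild type differed most at mphosph8, by -4.29 (log2), and at a babam2 region (chr5:5618890-5619386), by -4.01. At mphosph8 the T3 libraries read 14.1, 12.6 and 13.6 CPM in wild type and 4.36, 4.37 and 3.98 in TRαKO. Between TRβKO and wild type the T3 effect differed by 2.99 at fcho2 and by -2.85 at smpd1. Untreated log2 differences to wild type enter these values. They were 2.63 at mphosph8 and 2.30 at babam2 in TRαKO, and -2.46 at fcho2 and 1.59 at smpd1 (not called) in TRβKO. Between TRβKO and TRαKO the T3 effect differed by 3.41 at fcho2 and by 2.69 at amn (chr8:97850085-97850599). At fcho2 untreated TRβKO was at 0.183 to 0.345 CPM, and few reads carry that value. At amn TRβKO read 21.8, 16.5 and 20.7 CPM with T3 and TRαKO 4.36, 7.20 and 5.31.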

How the results depend on the processing

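Counts below are of the 320 regions. For fits with a library left out, shares over all tested regions are not given here, so those counts show only the spread. For TRαKO above wild type without T3, the 89 became 163 with TMM, 170 with DESeq2 and 17 after thinning, and 64 to 76 when a library was left out. For TRβKO above wild type the 81 became 124 with TMM and 21 after thinning, and 53 to 68 when a library was left out (53 without untreated TRβKO replicate 1). Lower calls in TRαKO were 1 by total tags (2.02% of all tested regions) and 0 in each leave-one-out fit, and in TRβKO 1 to 2. Between the untreated knockouts, TRβKO was higher at 1 region without the regions with peaks in every untreated group and at 2 to 4 with a library left out. It was lower at 4 with TMM (0.300% of all tested regions), 8 with DESeq2 (0.610%), 0 after thinning (0.310%), and 0 to 3 with a library left out.

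With T3, TRβKO was above wild type at 7 regions with TMM, 22 with DESeq2, 0 without the filter and 2 after thinning. The shares of all tested regions above were 0.814%, 1.18%, 0.507% and 2.06%. TRβKO was below at 8 with TMM (1.46% of all tested regions), 16 by total tags (2.69%) and 13 with DESeq2 (1.41%). Leaving out a library gave 0 to 1 above and 15 to 20 below (15 without TRβKO with T3 replicate 2). The smaller T3 effect in TRβKO than in wild type was called at 34 by total tags (0.614% of all tested regions) and 26 after thinning (2.48%). With a library left out it was called at 44 to 60. The larger T3 effect in TRβKO than in TRαKO was called at 222 with DESeq2 (5.15%) and 52 after thinning (4.28%), and at 84 to 105 with a library left out. The cause of these changes was not tested, beyond fewer reads after thinning and fewer libraries.

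Leaving out a library gave 313 to 315 regions higher with T3 in wild type, 270 to 283 in TRαKO and 309 to 311 in TRβKO. TRαKO below wild type with T3 ranged over 249 to 259, TRβKO above TRαKO over 215 to 239, and the smaller T3 effect in TRαKO over 215 to 238. The rule gave 169 regions when all 3 libraries had to carry a peak, 223 with a −log10 q of at least 5, 297 with 50% of the region overlapped, and 256 to 285 with a library left out. Regions with a peak in every untreated group ranged over 11 to 13.

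With a replicate block, 83 regions were higher in untreated TRαKO and 75 in untreated TRβKO. The block gave 0 in place of 2 regions lower in TRβKO than in TRαKO, and 0 in place of 1 higher in TRβKO than in wild type with T3. Libraries of different groups with the same number correlated in their deviations by -0.006 to 0.045 over 45 pairs (median 0.018). Those with other numbers correlated by -0.061 to 0.024 over 90 pairs (median -0.008). Same-number pairs were thus slightly higher, but all values were low, so the numbers were not taken to pair samples. A search for the DR4 response element was not run, since no sequence of the files' build was used here.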
